A study of Mus musculus with 2 samples.

Results

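The microRNA genes embedded in the Hox clusters were followed here: Mir10a, Mir10b, Mir196a-1, Mir196a-2, Mir196b and Mir615. They were chosen by position, as rows whose Ensembl identifier carries one of these symbols in GENCODE M21, and they make up 6 of the 2202 microRNA genes counted. The data are microRNA sequencing libraries with inserts under 30 nt, made from total RNA of the gastrocnemius, a calf muscle. Both came from male B6CASTF1/J mice, a first-generation hybrid of the C57BL/6 and CAST strains, at 4 days of age, with no transgene, mutation or treatment named. The libraries, replicate 2 and replicate 1 of a single group, carry animal numbers 4 and 3 and separate biosample records under a shared donor identifier. No second condition was used here, so each comparison sets replicate 2 against replicate 1 and measures a difference between libraries, not an effect of a condition.

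Hox genes encode transcription factors that give cells their position along the body and limb axes, and their order on the chromosome (paralog groups 13 to 1) follows the order of their expression domains from posterior to anterior. The microRNAs between them are transcribed within the same clusters, and several repress Hox messenger RNAs. In the mouse embryo miR-196 directs cleavage of the Hoxb8 messenger RNA. Limb muscle forms from cells that migrate out of the somites at limb level.

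The mature products show which members could act on the same targets. A microRNA recognises its targets mainly through the seed, bases 2 to 8 from the 5′ end, printed here in capitals (sequences from RefSeq, build GRCm38.p6, which held a mature sequence for all 6 members):
mmu-miR-10a-5p: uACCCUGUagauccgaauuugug
mmu-miR-10b-5p: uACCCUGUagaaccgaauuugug
mmu-miR-196a-5p: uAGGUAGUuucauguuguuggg
mmu-miR-196b-5p: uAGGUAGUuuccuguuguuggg
mmu-miR-615-3p: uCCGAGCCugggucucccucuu

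These products fell into 3 seed groups. miR-10a-5p and miR-10b-5p shared a seed and differed by the single substitution U12A (position counted from the 5′ end, the base of miR-10a first). miR-196a-5p and miR-196b-5p also shared a seed and differed by A12C, with the base of miR-196a first. Among 1679 mature microRNA names in the RefSeq table, no other carried the seed of miR-10, of miR-196 or of miR-615-3p. The deposited counts are per hairpin gene, so reads of the 5′ and 3′ arms were not separated.

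Mir196a-1 and Mir196a-2 encode the same miR-196a-5p from different chromosomes, which limits what could be counted. The stretches below, in mm10, show the longest run that the annotated hairpins share, in capitals, with 4 flanking bases on each side:
Mir196a-1, chr11:96265183-96265212, + strand: gaagTAGGTAGTTTCATGTTGTTGGGcctg
Mir196a-2, chr15:102973361-102973390, + strand: ggctTAGGTAGTTTCATGTTGTTGGGattg

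The shared run was 22 nt and equalled the whole of mature miR-196a-5p. Reads mapping to several places were set aside in these files, 45.1% of all reads in replicate 2 and 35.7% in replicate 1. A read of exactly mature miR-196a-5p fits both genes, so the counts of Mir196a-1 and Mir196a-2 are uncertain. No other pair of members shared more than 15 nt (Mir10a with Mir10b), and the remaining 4 members shared no 22 nt stretch with any annotated microRNA gene. The search covered annotated microRNA genes only.

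Before the members, the libraries themselves have to be described. Replicate 2 held 3073086 sense reads assigned to microRNA genes and replicate 1 held 4458853, the reads from which CPM, counts scaled to a library total of 1000000, are computed. A count of 0 allows up to 3 reads, or 0.976 CPM in replicate 2 and 0.673 CPM in replicate 1. All intervals are exact Clopper-Pearson 95% intervals and, like these limits, cover counting error only. The skeletal muscle microRNA Mir206 had 101 reads in replicate 2 against 652657 in replicate 1. Mir208a, a heart muscle microRNA, had 29718 reads in replicate 2 against 59 in replicate 1. The counts of replicate 2 thus go against its gastrocnemius label, and the libraries are called by their labelled replicate numbers throughout.

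The Hox-cluster microRNAs held a smaller share of the microRNA reads in replicate 2. Together they held 5237 reads there, 0.170% of microRNA reads (0.166 to 0.175%), and 83896 reads in replicate 1, or 1.88% (1.87 to 1.89%). The mean share was 1.03% ± 1.21 (SD, n = 2), a spread larger than the mean. A level of 10 reads or more was reached by 4 members in replicate 2 and by 6 in replicate 1. All 6 passed the filter of 10 reads in total, but Mir196a-2 and Mir196a-1 passed it through replicate 1 alone.

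Of the 6 members, 5 were lower in replicate 2 and 0 were higher, by an exact binomial test of each gene's reads with Benjamini-Hochberg adjustment over all tested genes (a gene was called when its adjusted p was below 0.05 and its log2 ratio reached 1 in either direction). The same test called 53.7% of all 410 tested genes, 36.1% lower and 17.6% higher. Mir196a-1 and Mir196a-2, which passed the filter through replicate 1, could only be called lower. Of the 4 members with at least 10 reads in each library, a requirement added after the data were seen, 3 were lower, against 37.8% of the 299 genes that met it. Log2 ratios are replicate 2 over replicate 1, scaled by the trimmed mean of M values (TMM). The median log2 ratio of the 6 members was −5.52, and −5.20 with Mir196a-1, which had no reads in replicate 2, set at 3 counts, against −0.33 over all tested genes. This test measures departure from counting noise between the pair of libraries. With the spread between the libraries taken into account (edgeR exact test on a common dispersion of 1.23), 0 members were called, 3 had an unadjusted p under 0.05 and the adjusted p ran from 0.657 to 1 (exact test), and 0 of 410 genes were called, with 28 at an unadjusted p under 0.05. Since no other libraries were at hand, this dispersion contains the very difference being tested.

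The members' count was set against the other scalings, since these move all genes together. DESeq2 size factors called 55.6% of genes, 31.0% lower and 24.6% higher, and scaling by total reads called 61.0%, 28.0% lower and 32.9% higher. The same 5 members were lower under each, with medians of −5.24 over the members against −0.05 over all genes for DESeq2, and −4.89 against 0.29 for total reads. The same 5 were also lower in the unstranded counts (31.4% of all genes), with no minimum (21.0%) and with a prior count of 5 (35.6%). With at least 100 reads required, Mir196a-1 was not tested and 4 of 5 members were lower, against 42.5% of all genes.

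**Figure D1:**
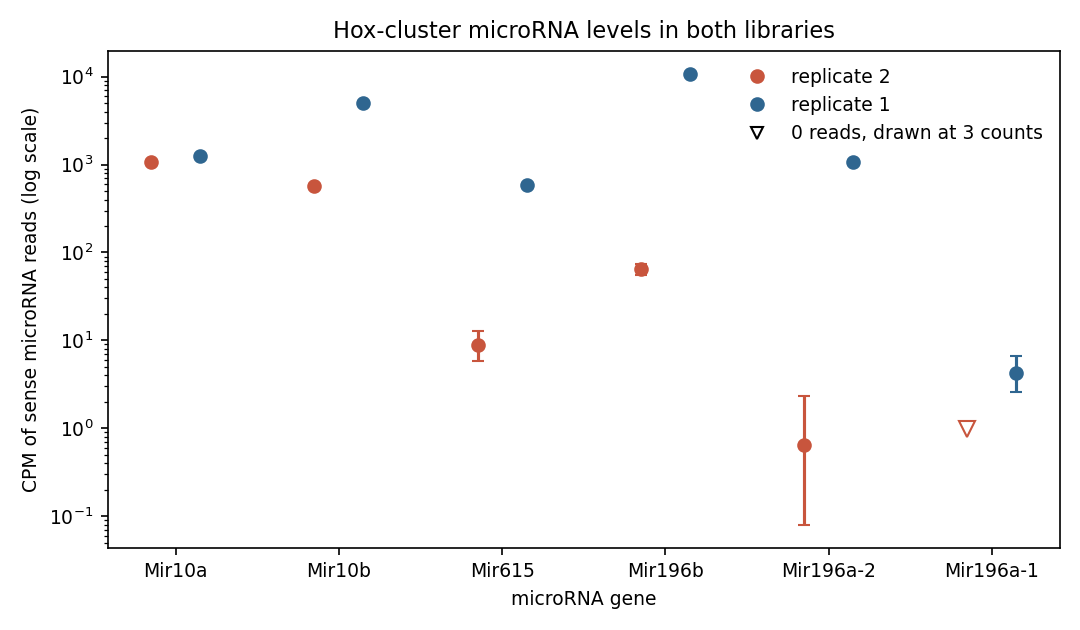
Level of each Hox-cluster microRNA gene in replicate 2 (left point of each pair) and replicate 1 (right point), in CPM on a log scale, with 95% counting intervals. The open triangle marks Mir196a-1 with 0 reads in replicate 2, drawn at the 3 counts that 0 allows. The levels of Mir10a lie close together, while Mir196b and Mir196a-2 lie far apart.

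Mir10a, 0.993 kb from Hoxb4 in the gap between Hoxb5 and Hoxb4 (mm10 chromosome 11, 96317165 to 96317274, + strand, in no annotated host gene), was the member whose libraries lay closest. It had 3268 reads in replicate 2, or 1063 CPM (1027 to 1101), and 5647 reads in replicate 1, or 1266 CPM (1234 to 1300). The CPM intervals did not overlap, yet its TMM-scaled log2 ratio of −0.88 (−0.94 to −0.82) stayed inside the threshold. Of the tested genes, 40.2% had a lower ratio. Scaled by total reads, as CPM is, the log2 ratio of Mir10a was −0.25. Mir10a ranked 68th among all genes of replicate 2 and 78th in replicate 1.

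Mir10b, within introns that the annotation gives to Hoxd3 and to Hoxd4 (chromosome 2, 74726070 to 74726137, + strand), was further apart between the libraries than Mir10a. Replicate 2 had 1743 reads, or 567 CPM (541 to 594), and replicate 1 had 22639, or 5077 CPM (5012 to 5144). The log2 ratio was −3.79 (−3.86 to −3.72), and the gene was called lower. Its rank was 85 in replicate 2 and 38 in replicate 1.

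The balance between the miR-10 genes turned over between the libraries, a comparison that no scaling between libraries touches. Mir10b gave 34.8% of their joint reads in replicate 2 (33.5 to 36.1%) and 80.0% in replicate 1 (79.6 to 80.5%). Reads of Mir10b were 0.533 times those of Mir10a in replicate 2 (0.503 to 0.565) and 4.01 times in replicate 1 (3.89 to 4.13). Since the mature products are of equal length and share their seed, the joint level can be given too: 5011 reads, or 0.163% of microRNA reads, in replicate 2 and 28286 reads, or 0.634%, in replicate 1.

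Mir615, in an intron of Hoxc5 (chromosome 15, 103014910 to 103015001, + strand) and 3.03 kb from the end of Hoxc6, had few reads in replicate 2. It had 27 reads there, or 8.79 CPM (5.79 to 12.8), against 2589 in replicate 1, or 581 CPM (558 to 603). The log2 ratio was −6.62 (−7.28 to −6.13), and 5.12% of tested genes had a lower one. The gene ranked 267th in replicate 2 and 107th in replicate 1.

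The counted reads of the miR-196 genes were far fewer in replicate 2. Reads of miR-196a-5p that fit both Mir196a genes are missing from these counts. Mir196b, in an exon of Hoxa9 as annotated and 1.03 kb from Hoxa10 (chromosome 6, 52230081 to 52230165, − strand), had 197 reads in replicate 2, or 64.1 CPM (55.5 to 73.7), and rank 173. In replicate 1, where it was the most abundant member, it had 48288 reads, or 10830 CPM (10734 to 10926), and rank 20. Its log2 ratio was −8.02 (−8.24 to −7.83), with 6 of 410 tested genes lower still.

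Mir196a-2 lies between Hoxc10 (1.46 kb away) and Hoxc9 (3005 nt away), in an intron of a long Hoxc5 transcript (chromosome 15, 102973350 to 102973434, + strand). It had 2 reads in replicate 2, or 0.651 CPM (0.0788 to 2.35), and 4714 in replicate 1, or 1057 CPM (1027 to 1088). Its log2 ratio of −10.71 carried a wide interval, −14.34 to −9.44, since it rests on 2 reads. Only 1 tested gene had a lower ratio, Mir206.

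Mir196a-1 sits in the long gap between Hoxb13 and Hoxb9, 6.19 kb from Hoxb9 (chromosome 11, 96265164 to 96265265, + strand, in no annotated host gene). It had 0 reads in replicate 2 and 19 in replicate 1, or 4.26 CPM (2.57 to 6.65). In CPM it was 4.37-fold lower in replicate 2 if that library is taken at 3 counts and the 19 reads of replicate 1 as exact. The upper end of its log2 ratio interval was −2.31, and it was called lower (adjusted p = 1.81e-06 by the exact binomial test over all genes). Both miR-196a genes share the 22 nt printed above, so these counts hold only the reads that could be told apart.

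Within the miR-196 genes, the reads came almost wholly from Mir196b. It gave 197 of their 199 reads in replicate 2, or 99.0% (96.4 to 99.9%), and 91.1% in replicate 1 (90.8 to 91.3%). The reads of miR-196a-5p that fit both Mir196a genes are missing from these shares. Jointly the miR-196 genes held 0.00648% of microRNA reads in replicate 2 and 1.19% in replicate 1.

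**Figure D2:**
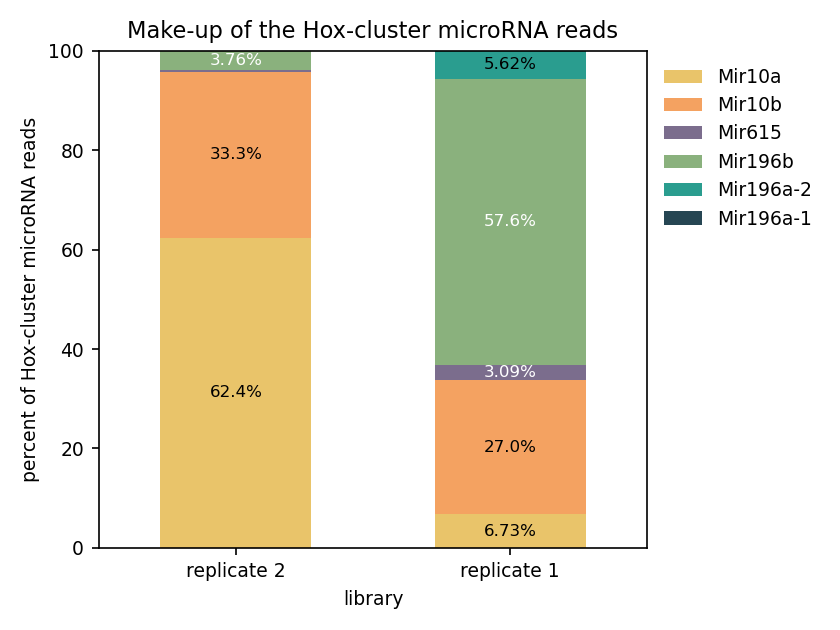
Share of each gene among the reads of the 6 Hox-cluster microRNAs, as stacked bars for replicate 2 (left) and replicate 1 (right), which start at 0 and add up to the whole. Mir10a makes up 62.4% of replicate 2, and Mir196b 57.6% of replicate 1.

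The order of the levels accordingly differed. CPM is set side by side without scaling by length because the mature products printed above are 22 or 23 nt long. Read lengths were not examined. Reads that fit both Mir196a genes are missing, so the places of these genes in the order are uncertain. In replicate 2 the order of CPM from high to low was Mir10a, Mir10b, Mir196b, Mir615, Mir196a-2 and Mir196a-1, and only the last pair had overlapping intervals. In replicate 1 it was Mir196b, Mir10b, Mir10a, Mir196a-2, Mir615 and Mir196a-1, with no overlap between neighbours. Mir10a and Mir10b together were 95.7% of the members' reads in replicate 2 (95.1 to 96.2%) and 33.7% in replicate 1 (33.4 to 34.0%).

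Set out along the clusters, the log2 ratios were −0.88 for Mir10a beside Hoxb4, −3.79 for Mir10b in Hoxd4 and −6.62 for Mir615 in Hoxc5. Beside paralog groups 9 and 10, Mir196b was at −8.02 and Mir196a-2 at −10.71, this last value resting on 2 reads. Mir196a-1, also beside group 9, has only an upper bound of −2.31, so it cannot be placed below Mir10b or Mir615. Mir10a and Mir10b, both at group 4, differed from each other. With 6 genes in a pair of libraries, no order along the clusters was tested. Members of the same cluster differed as well. In the Hoxb cluster Mir196a-1, 51.9 kb from Mir10a, had no reads in replicate 2, where Mir10a had 3268. In the Hoxc cluster Mir196a-2 and Mir615, 41.5 kb apart, stood at a ratio of 0.0741 in replicate 2 (0.00854 to 0.295) and 1.82 in replicate 1 (1.74 to 1.91).

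**Figure D3:**
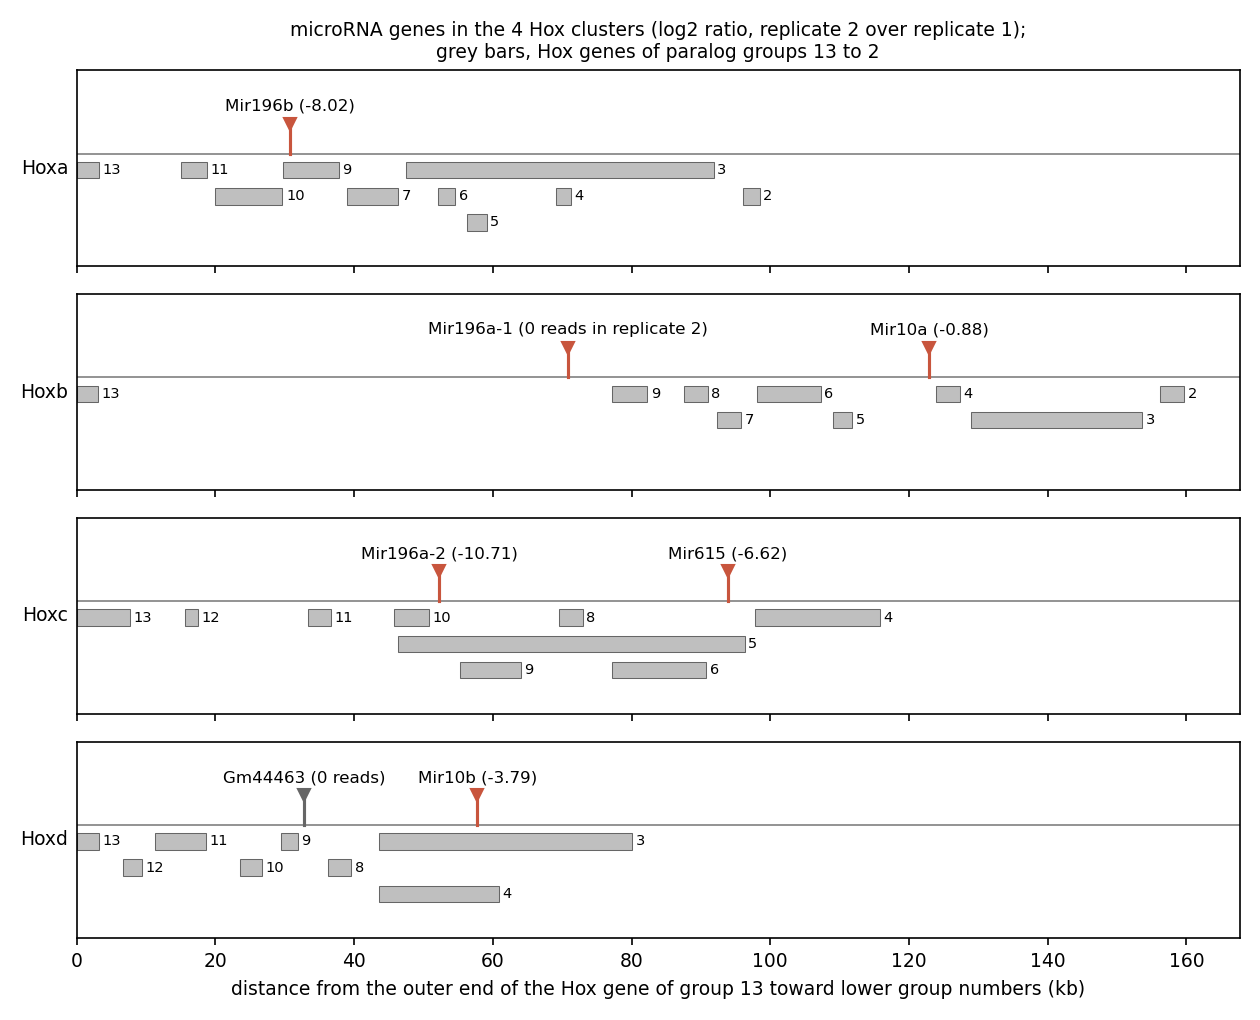
The Hox clusters drawn to scale in kb from the outer end of the group 13 gene, with the Hox genes of paralog groups 13 to 2 as grey bars with their group numbers and microRNA genes as triangles with their log2 ratio, replicate 2 over replicate 1. Mir196b at −8.02 and Mir196a-2 at −10.71 stand beside groups 9 and 10, while Mir10a at −0.88 stands beside Hoxb4. Mir196a-1, nearest to Hoxb9, has 0 reads in replicate 2 and no placed ratio.

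The clusters' other microRNA genes gave little to compare. A single further microRNA gene, Gm44463 in the Hoxd cluster, is annotated inside a cluster, and it had 0 reads in both libraries. Of the 9 genes made up of Gm44463 and the nearest microRNA gene on each side of each cluster, 7 had 0 reads in both libraries and 2 were tested. Mir152, 482 kb beyond the Hoxb cluster, had 720 reads in replicate 2 and 1590 in replicate 1 (log2 ratio −1.23, −1.36 to −1.10) and was called lower. Mir148b, 248 kb beyond the Hoxc cluster, had 239 and 357 reads in the same order (−0.67, −0.91 to −0.43) and was not. The call of Mir152 was lost under DESeq2 scaling (−0.95) and under scaling by total reads (−0.60).

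Mir99a, Mir99b and Mir100 belong to the wider miR-10 family but lie outside the Hox clusters. Their seed differs from that of miR-10, as the mature sequences show:
mmu-miR-99a-5p: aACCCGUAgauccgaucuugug
mmu-miR-99b-5p: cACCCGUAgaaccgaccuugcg
mmu-miR-100-5p: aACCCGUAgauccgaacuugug

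Of these 3 genes 0 were called, and their log2 ratios were 0.12 for Mir99a, 0.68 for Mir99b and −0.09 for Mir100, which became 0.19 under DESeq2 scaling, 0.54 under scaling by total reads and 0.09 in the unstranded counts. Scaled by total reads, Mir99b passed the threshold at 1.31. They held 4.57% of microRNA reads in replicate 2 and 2.59% in replicate 1. Against that, Mir10a and Mir10b made up 3.44% of the reads of these 5 genes in replicate 2 (3.35 to 3.54%) and 19.7% in replicate 1 (19.5 to 19.9%). By the same test on the same libraries, Mir10b was called lower and Mir10a was not.

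**Figure D4:**
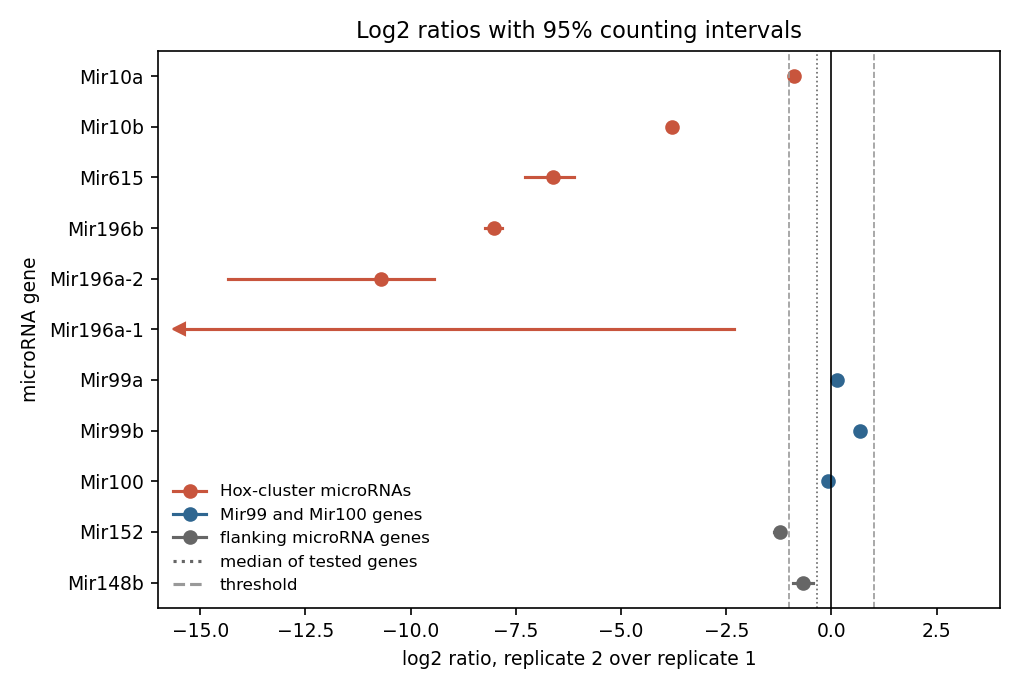
Log2 ratio, replicate 2 over replicate 1, with 95% counting intervals, for the Hox-cluster microRNAs (red), the Mir99 and Mir100 genes (blue) and the tested flanking genes (grey). Dashed lines mark the threshold of 1 in either direction and the dotted line the median of all tested genes, −0.33. Mir196a-1 has an upper bound only, drawn as an arrow, and Mir10b to Mir196a-2 lie between −3.79 and −10.71.

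The genes most like each member were found by distance in log2 CPM over the 2 libraries, with 1 read added. Mir10a was closest to Mir455 (3239 reads in replicate 2 and 5716 in replicate 1, distance 0.0217) and Mir324 (3396 and 5428, distance 0.0795). Mir10b was closest to Mir337 (1195 and 30932 reads in the same order, distance 0.706) and Mir483 (1066 and 27493, distance 0.762), and Mir196b to Mir381 (282 and 38338, distance 0.613) and Mir540 (244 and 31944, distance 0.671). Mir615 was closest to Mir668 (28 and 2199 reads, distance 0.241) and Mir136 (24 and 2224, distance 0.273), and Mir196a-2 to Mir410 (4 and 2902, distance 1.02) and Mir380 (10 and 7421, distance 1.99). Of these 10 genes 7 lie on chromosome 12. They were picked by their levels in these same libraries, so the 15.6% of all tested genes on that chromosome is no fair background. An enrichment was not tested. With 2 libraries, likeness means a similar level and a similar ratio and no more.

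**Figure D5:**
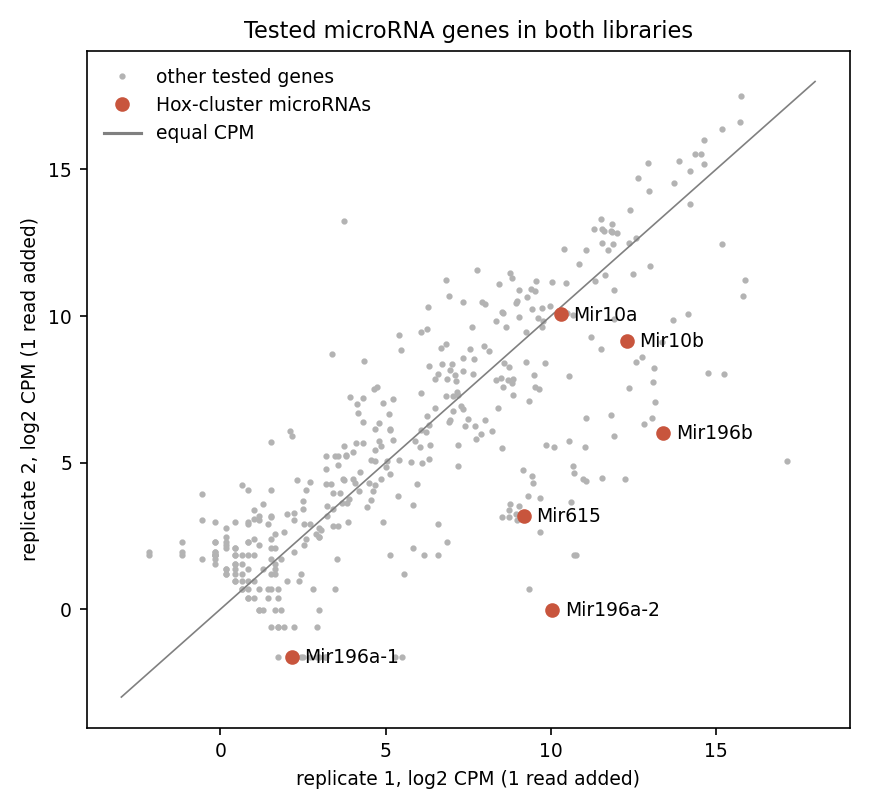
Each tested microRNA gene by its log2 CPM (1 read added) in replicate 2 (vertical axis) and replicate 1 (horizontal axis), with the Hox-cluster microRNAs in red and a line of equal CPM. Mir10a lies near the line, at 1063 CPM in replicate 2 and 1266 CPM in replicate 1. Mir10b, Mir615, Mir196b and Mir196a-2 lie below it among other genes with lower CPM in replicate 2 than in replicate 1.

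The lists of cell type markers moved in both directions between the libraries. Over all tested genes, 36.1% were called lower in replicate 2 and 17.6% higher, the background for every list. The 11 skeletal muscle microRNAs held 0.479% of replicate 2 and 14.7% of replicate 1, with 3 higher and 3 lower in replicate 2 of 8 tested and Mir133c at 0 in both. Mir206 made up nearly all of the share in replicate 1, and the other 10 genes held 0.476% in replicate 2 and 0.0907% in replicate 1. The 3 higher genes were Mir499 (log2 ratio 2.05), Mir208b (1.93) and Mir486 (1.59), whose expression outside skeletal muscle was not examined. The 3 lower genes were Mir206 (−12.73), Mir133b (−5.37) and Mir133a-1 (−1.13). The list thus did not move as one, and its summed share is no measure of skeletal muscle content. It also holds numbered gene copies, such as Mir1a-1 with Mir1a-2 and Mir133a-1 with Mir133a-2. Reads that fit several genes were set aside, so the counts of such copies may hold only part of their reads. The heart gene Mir208a, called higher, held 0.967% of replicate 2 and 0.00132% of replicate 1.

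Of the fibroblast and neural genes that were tested, most were lower in replicate 2, but most of the neural list was not tested. The 4 fibroblast genes held 0.281% of replicate 2 and 0.591% of replicate 1 (0 higher and 3 lower of 3 tested, with Mir199a-1 at 0 in replicate 2). The 11 neural genes held 0.0426% of replicate 2 and 0.142% of replicate 1 (1 higher and 3 lower of 4 tested, with the 6 Mir9 and Mir124a genes at 0 in both). Reads that fit several places were set aside in these files, so a 0 in the marker lists does not show that a microRNA was absent.

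The tested genes of the blood and epithelial lists were mostly higher or uncalled. The 6 white blood cell genes held 0.429% of replicate 2 and 0.0793% of replicate 1 (3 higher and 1 lower of 5 tested, with Mir142b at 0 in both). The 2 erythroid genes held 0.0979% of replicate 2 and 0.0220% of replicate 1, with 2 of 2 higher, and the 7 epithelial genes held 0.0587% and 0.0223% in the same order, with 3 higher and 0 lower of 7 tested. The share of Mir126a, an endothelial gene, was 6.62% in replicate 2 and 2.54% in replicate 1, and that of the 2 smooth muscle genes was 4.90% and 2.17% in the same order, with 0 called in either list. The part of these lists in the members' result was not tested, and in bulk tissue fewer cells of a type and less RNA per cell cannot be told apart.

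Antisense reads were absent from the members' rows. All 6 genes had 0 antisense reads in both libraries, and the unstranded counts equalled the sense counts.

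Sequences in Hox transcripts that are complementary to these microRNAs are given here as context since no messenger RNA was measured. The reverse complement of each seed was searched on the transcript strand in the longest annotated 3′ untranslated region of each protein-coding gene (GENCODE M21), whose median length was 966 nt over 39 Hox genes and 961 nt over 21013 genes. The miR-196 match, ACTACCT, was present in 9 of 39 Hox genes (23.1%), with 4 copies in Hoxa7, and in 6.11% of all genes. The miR-10 match, ACAGGGT, was in 10.3% of Hox genes and in 12.5% of all genes. The miR-615-3p match, GGCTCGG, was in Hoxb4 alone (2.56%) and in 2.30% of all genes. Matches are a description and say nothing of repression.

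Over the 3′ untranslated regions of the 39 Hox genes only, the site with the most bases paired to miR-196a-5p, without gaps, lay in Hoxb8. This site is shown because cleavage of Hoxb8 by miR-196 is the textbook case. Bases that form a Watson-Crick pair with miR-196a-5p are in capitals:
Hoxb8, chr11:96284888-96284909, + strand: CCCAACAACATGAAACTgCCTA

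This mm10 site paired at 21 of 22 bases with miR-196a-5p, and the remaining base formed a G:U pair in the seed, so Hoxb8 is not among the 9 genes with the exact match. With miR-196b-5p, the form that dominated the counted reads, 20 of 22 bases paired. The next best site among the Hox genes, in Hoxd8, paired at 15 of 22 bases with miR-196a-5p.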

How the data were processed

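MicroRNA reads were counted by the authors in 2 libraries of 1 group. The deposited columns hold raw counts for each microRNA gene, unstranded, sense and antisense. Genome build mm10 and gene set GENCODE M21 are named in the deposited readme text. Aligner and adapter trimming were not given in the sources used here. In the file, 4 lines that belong to no gene were kept out of totals and tests. In replicate 2 they held 8.60% unmapped, 45.1% multimapping and 3.83% unassigned sense reads, against 9.97%, 35.7% and 2.05% in replicate 1, with 0 ambiguous reads in both.

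Sense counts were used. Genes with at least 10 reads in total (410) entered TMM scaling (edgeR 4.0.16, R 4.3.3) and a two-sided exact binomial test with Benjamini-Hochberg adjustment. Log2 ratios have a prior count of 1, and their intervals come from Clopper-Pearson intervals. Many p-values are too small to store, so intervals are printed. The test was tried before use on simulated counts that held counting noise only. That trial says nothing of how the test behaves with spread between libraries. Alternatives were DESeq2 1.42.0 size factors, total reads, the unstranded column, a minimum of 1 or 100 reads, a prior count of 5, the edgeR exact test and each library alone. All 2202 identifiers matched GENCODE M21. Scripts ran in Python 3.11.15 with scipy 1.17.1, pandas 2.3.3 and numpy 2.4.6.

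Named genes are the 6 members, Mir99a, Mir99b and Mir100, other and flanking microRNA genes of the Hox clusters, the 2 genes nearest in log2 CPM to each member with at least 100 reads, Mir206 and Mir208a. Members, lists and tests were chosen with earlier results of these data known. The libraries carry separate animal numbers under a shared donor identifier, and the sources used here do not say whether the animals were litter mates. PCR copies of a read are not independent molecules. The single Hox genes with a miR-10 seed match are not reported here.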

Additional observations from a re-analysis of the deposited data

How the results depend on the processing

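Scaling, column, minimum and prior count left the members' directions and calls as reported: 5 lower under DESeq2 scaling, total reads, the unstranded column, no minimum and a prior count of 5, and 4 of 5 with at least 100 reads, where Mir196a-1 dropped out. With at least 10 reads in each library, added after the data were seen, 3 of 4 members were lower, since Mir196a-1 and Mir196a-2 were then not tested. Mir10a ranged from −0.88 to −0.25 and stayed uncalled. DESeq2 size factors and total reads moved the median of all tested genes by 0.28 and 0.63. Higher calls over all genes numbered 72 of 220 in the reported analysis, 101 of 228 with DESeq2 size factors and 135 of 250 with total reads. With the edgeR exact test on the pair's common dispersion, calls fell to 0 over all genes, 0 among the members and 0 among the flanking genes. That test takes the difference between the libraries as spread. Flanking calls were also 0 under DESeq2 scaling and 0 under scaling by total reads, which gave 1 call among the Mir99 and Mir100 genes. Each library alone gave a share of the members between 0.170 and 1.88%, a Mir10b share of the miR-10 reads between 34.8 and 80.0%, and a Mir196b share of the miR-196 reads between 91.1 and 99.0%. A Mir196b share without the Mir196a genes is undefined. No log2 ratio can be had without either library. No paired analysis was possible because there is 1 group. Depth limits Mir196a-2 (2 reads) and Mir196a-1 (0 reads) in replicate 2.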
